A study of Mus musculus with 6 samples.

Results

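The S100 genes encode small calcium-binding proteins, and 9 of them, S100a1, S100a3, S100a4, S100a6, S100a8, S100a9, S100a10, S100a11 and S100a13, were described in DC2.4, an immortalised mouse cell line of dendritic cell origin. They were taken by symbol from a deposited table of 54532 genes. The family was chosen by a measured value, the difference of S100a4 between the groups, so the differences between the groups are given as a description, and the same data cannot test them. Of the 9 genes, 7 passed the filter on low counts and were among the 12844 genes tested, while S100a3 and S100a9 did not pass it.

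The libraries labelled Vdbp came from 3 samples of DC2.4 cells transfected with a pTT5 vector that carried Vdbp, the vitamin D-binding protein. The empty-vector libraries came from 3 samples of the same line that carried pTT5 alone. All 6 samples came from cells passaged 48 h after transfection and then selected, with no other treatment named. The labels do not say whether clones were picked or whether the 3 samples of a group were separate transfections, so every SD and SE measures only the spread between these samples. Library totals were 15563800 to 16710975 counts. Gc, the mouse gene of the vitamin D-binding protein, had 0 counts in every library of both groups, which allows up to 0.192 CPM (counts scaled to library size, 3 counts per library), so the groups are named by their labels. Of 14 markers of myeloid and dendritic cells, 8 were tested, and their summed level was 1397 to 1627 CPM in the libraries labelled Vdbp and 1372 to 1431 CPM in the empty-vector libraries. The highest of them was Csf1r, which averaged 614 CPM with the label and 580 CPM with the empty vector, followed by Spi1 at 336 and 291 CPM. Ptprc averaged 164 and 186 CPM and Itgam 61.7 and 71.0 CPM in the same groups. Cd74, the invariant chain of class II molecules, averaged 203 CPM with the label and 168 CPM with the empty vector, the integrin Itgax 51.0 and 49.6 CPM, the transcription factor Irf8 54.2 and 59.2 CPM and the dendritic lineage factor Zbtb46 2.85 and 2.69 CPM. The class II genes H2-Aa and H2-Ab1 and the dendritic lineage genes Batf3 and Clec9a averaged at most 0.106 CPM in either group, and the dendritic cell genes Flt3 and Xcr1 at most 0.223 CPM. Each library's deviation from the mean of all 6 followed gene GC content to a different degree, with a Spearman's rho across genes of 0.728, −0.015 and −0.398 in Vdbp replicates 1, 2 and 3, and −0.087, −0.623 and 0.071 in empty-vector replicates 1, 2 and 3. Genes richer in GC tended to stand higher with the Vdbp label (Spearman's rho of log2 fold change with GC content 0.522). Fold changes below are not corrected for this, except where removal of a length and GC trend is stated.

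S100 proteins carry a pair of EF-hand calcium-binding loops and act mostly as dimers. On binding calcium they expose a surface that grips a partner protein such as an annexin or a myosin heavy chain. Several of them are also released from cells and act as danger signals on receptors such as RAGE and TLR4, and S100a8 and S100a9 together form calprotectin, the main cytosolic protein pair of neutrophils. Most S100 genes lie side by side in the genome. In these data 7 of the 9 members lay within 184.7 kb of chromosome 3, from S100a1 to S100a9, and S100a11 and S100a10 followed 2.82 Mb farther on, 28.8 kb apart. The build was not given in the sources used here, but the start and end of all 9 genes were those of GENCODE M21, on GRCm38.

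The promoters of 6 members are shown because genes next to each other in this stretch differed widely in counted level. Each is a RefSeq window on GRCm38.p6, 5′ to 3′ on the gene's strand. It holds the 250 bases before the gene's start and 50 bases from the start on. Of the 9 members, 8 had a window in the RefSeq table. S100a10 was not among them, and S100a3, with several windows, is not shown. Capitals mark matches, on either strand, to 7 motifs: the TATA box TATAAA, the GC box GGGCGG, the CCAAT box CCAAT, the AP-1 site TGANTCA, the PU.1 core GAGGAAG, the C/EBP-like TTGCNNAA and the E-box CACGTG. The starts are those of RefSeq: they equal the gene starts of the deposited table for S100a9 and S100a13, and lie 1 base before it for S100a4 and 8, 12, 62 and 93 bases inside the gene for S100a11, S100a6, S100a1 and S100a8. In the S100a13 window capitals mark instead the 42 bases between the starts that the table gives for S100a1 and S100a13, which run in opposite directions; their RefSeq starts have 104 bases between them. No match overlapped another. The windows are at chr3:93520246-93520545 for S100a11, chr3:90612644-90612943 for S100a6, chr3:90514185-90514484 for S100a13, chr3:90603520-90603819 for S100a4 and chr3:90668821-90669120 for S100a8, all on the plus strand, and at chr3:90695672-90695971 on the minus strand for S100a9.
S100a11: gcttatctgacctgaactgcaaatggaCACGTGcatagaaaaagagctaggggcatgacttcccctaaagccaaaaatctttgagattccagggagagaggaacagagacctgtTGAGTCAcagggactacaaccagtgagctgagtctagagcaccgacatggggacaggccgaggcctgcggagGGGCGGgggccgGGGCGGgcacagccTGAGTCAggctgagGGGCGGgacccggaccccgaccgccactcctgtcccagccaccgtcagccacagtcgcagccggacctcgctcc
S100a6: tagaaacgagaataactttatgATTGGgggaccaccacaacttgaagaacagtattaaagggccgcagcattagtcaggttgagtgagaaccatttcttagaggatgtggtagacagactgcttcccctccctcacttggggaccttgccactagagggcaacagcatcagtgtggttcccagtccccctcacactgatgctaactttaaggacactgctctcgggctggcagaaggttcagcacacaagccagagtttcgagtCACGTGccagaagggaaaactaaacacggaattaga
S100a13: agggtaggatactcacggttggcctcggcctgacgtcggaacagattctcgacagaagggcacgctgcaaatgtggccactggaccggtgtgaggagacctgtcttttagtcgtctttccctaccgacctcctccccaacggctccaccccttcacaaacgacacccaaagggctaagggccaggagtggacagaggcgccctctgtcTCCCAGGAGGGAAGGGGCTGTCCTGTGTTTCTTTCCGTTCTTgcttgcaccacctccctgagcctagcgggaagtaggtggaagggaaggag
S100a4: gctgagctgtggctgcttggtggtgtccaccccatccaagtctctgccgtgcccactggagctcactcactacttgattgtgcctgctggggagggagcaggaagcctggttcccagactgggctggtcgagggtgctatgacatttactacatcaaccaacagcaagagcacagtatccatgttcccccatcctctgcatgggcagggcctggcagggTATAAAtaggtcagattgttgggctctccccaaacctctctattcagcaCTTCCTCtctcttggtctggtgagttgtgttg
S100a8: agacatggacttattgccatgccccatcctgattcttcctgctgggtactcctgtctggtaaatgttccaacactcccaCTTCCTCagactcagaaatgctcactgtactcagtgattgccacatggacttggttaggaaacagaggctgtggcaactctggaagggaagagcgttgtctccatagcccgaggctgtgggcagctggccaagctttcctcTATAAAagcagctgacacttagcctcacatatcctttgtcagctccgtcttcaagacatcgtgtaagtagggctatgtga
S100a9: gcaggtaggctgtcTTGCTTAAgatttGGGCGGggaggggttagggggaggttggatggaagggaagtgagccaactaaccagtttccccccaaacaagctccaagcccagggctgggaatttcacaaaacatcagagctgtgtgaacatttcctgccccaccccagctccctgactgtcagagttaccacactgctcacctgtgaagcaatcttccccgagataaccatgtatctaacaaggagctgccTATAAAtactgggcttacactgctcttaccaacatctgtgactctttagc

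The windows of S100a4 and S100a8 each held a TATA box, 31 and 30 bases before the RefSeq start. That of S100a9 held one that began at the start base itself. TATAAA was found in 13.6% of the 32851 promoters of the table. S100a11 had 3 GC boxes, at 64, 52 and 24 bases before its start, and 2 AP-1 sites, at 136 and 38 bases before it. Of all promoters 35.7% held a GC box and 7.81% an AP-1 site. S100a6 had an E-box that began at base 15, with the start as base 1, a sequence that 7.15% of promoters held. The PU.1 core, which 13.6% held, began at base 19 from the start of S100a4, counted the same way. In S100a8 it lay 171 bases before the start. Neither the S100a1 window nor that of S100a13 held any of the 7 motifs, and the pair of windows, set on the RefSeq starts, shared 204 bases. CpG dinucleotides numbered 15 in S100a11, 14 in S100a13, 11 in S100a1, 6 in S100a6, 4 in S100a8 and 2 each in S100a4 and S100a9, against a median of 7 over all promoters. A match describes the letters of the window only.

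S100a11, S100a10 and S100a6 stood at a high level in every library. S100a11, whose protein binds annexin A1, had the highest level per length, a median of 423 FPKM (fragments scaled to gene length and library size, the authors' deposited values) over the 6 libraries and a range of 373 to 475. S100a10, which has lost calcium binding and forms a complex with annexin A2, followed with a median of 208 FPKM (178 to 232). S100a6, known as calcyclin, had a median of 165 FPKM (138 to 197), so its range overlapped that of S100a10. By FPKM these genes took places 98, 222 and 281 among the 12844 tested genes. Together they held 86.5% to 87.5% of the counts of the 9 members in the libraries labelled Vdbp and 86.1% to 87.0% in the empty-vector libraries.

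The remaining members fell over several orders of magnitude. S100a1, a calcium sensor best known from heart and skeletal muscle, had a median of 90.6 FPKM (80.6 to 107.6). S100a13, which takes part in the release of interleukin 1 alpha and FGF1, had 41.0 FPKM (35.4 to 44.6). S100a4, a partner of non-muscle myosin IIA that is also called fibroblast-specific protein, had 15.7 FPKM (8.88 to 22.2). S100a8 had 4.14 FPKM (3.11 to 5.35). S100a3 (ENSMUSG00000001021, 90560578 to 90602702, plus strand), a protein of the hair cuticle, had 0.038 FPKM (0.021 to 0.053), from 4, 2 and 3 counts in Vdbp replicates 1, 2 and 3 and 2, 5 and 4 counts in empty-vector replicates 1, 2 and 3. Those values overlap, and Gm42674, a gene on the same strand, covers 144 of its exonic bases. S100a9 had 0 counts in all 6 libraries. Except for S100a10 and S100a6, the ranges of neighbours in this order did not overlap.

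**Figure D1:**
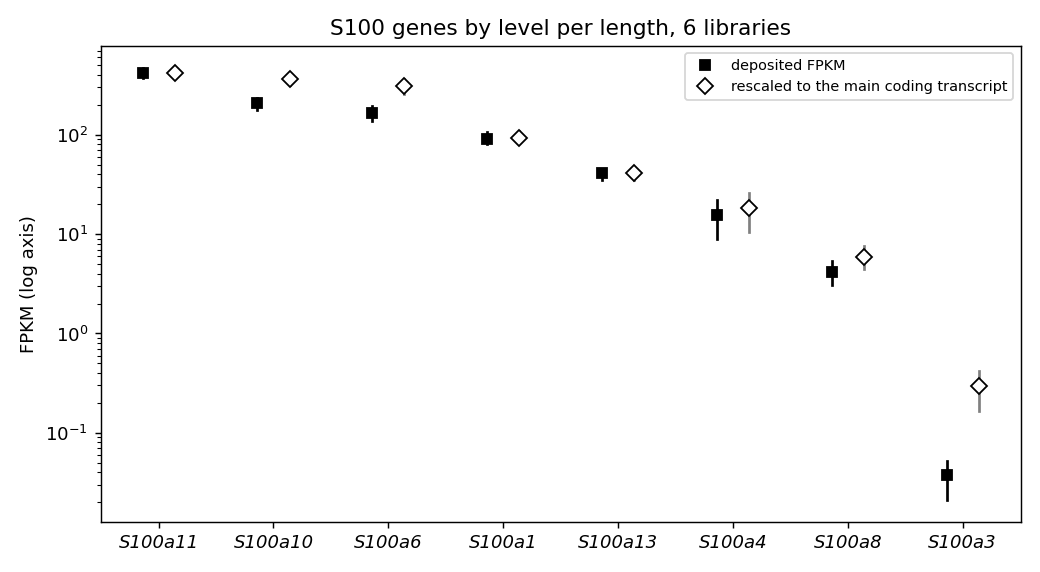
Level per length of the 8 S100 genes with counts, as FPKM on a log axis, with the median (symbol) and range (line) over 6 libraries. Black squares are the deposited values and open diamonds the same values rescaled to the length of the main coding transcript; the order from S100a11 to S100a3 is the same on both.

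The order of the medians was the same with the deposited gene length and with that of the main coding transcript, but the sizes differed. By CPM, without division by gene length, S100a10 came first, then S100a6 and S100a11. The length in the deposited table equalled the summed exons of all transcripts in GENCODE M21 for all 9 members, which is 1367 bases for S100a6, 1212 for S100a10 and 5660 for S100a3, while their main coding transcripts measure 731, 685 and 712 bases. Rescaled to the main coding transcript, S100a10 had a median of 369 FPKM, S100a6 of 308 FPKM and S100a3 of 0.299 FPKM, and S100a11, with 1 transcript of 511 bases, kept 423 FPKM. This rescaling was chosen after seeing the data. The rescaled range of S100a11 (373 to 475 FPKM) overlapped that of S100a10 (316 to 411 FPKM).

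S100a8 was counted without S100a9, the partner with which it forms calprotectin. S100a8 (ENSMUSG00000056054, 90668978 to 90670035, plus strand) had 35, 48 and 45 counts in Vdbp replicates 1, 2 and 3, and 47, 53 and 63 counts in empty-vector replicates 1, 2 and 3. S100a9 (ENSMUSG00000056071, 90692632 to 90695721, minus strand) had none in either group, which allows a level of up to 0.192 CPM per library. With S100a9 set at that floor of 3 counts in each library, S100a8 was at least 8.775-fold higher per length in each library labelled Vdbp. It was at least 11.78-fold higher in each empty-vector library. These values allow for counting error in S100a9 only, with S100a8 taken as counted. No window of 50 bases of either main transcript occurred in a transcript of another gene, so shared sequence of that length was not found for them. Of 10 markers of neutrophils, the collagenase Mmp8 was the highest, above S100a8 itself in CPM, and averaged 8.04 ± 1.46 CPM with the Vdbp label and 12.6 ± 1.55 CPM with the empty vector. Ngp, the only other marker to pass the filter, averaged 0.825 CPM with the label and 0.725 CPM with the empty vector, and the remaining 8, the granule genes Mpo and Elane among them, averaged at most 0.429 CPM in either group.

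Other S100 genes were close to absent from the counts. Of a list of 9 further family members, 8 were in the table and none passed the filter. S100a5, S100g and S100z had 0 counts in every library. S100a14 had at most 4 counts in a library labelled Vdbp and 1 in an empty-vector library, and S100a7a at most 1 and 4. S100a2 had at most 2 counts in any library of either group, and S100a16 and S100b, a protein of astrocytes, at most 1. S100a5, at 0, lies between S100a4 and S100a6, 2477 bases beyond the one and 1101 bases before the other. Of the 16 genes of the table from S100a1 to S100a9, 5 were tested, all of them members, and 5 had no counts.

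**Figure D2:**
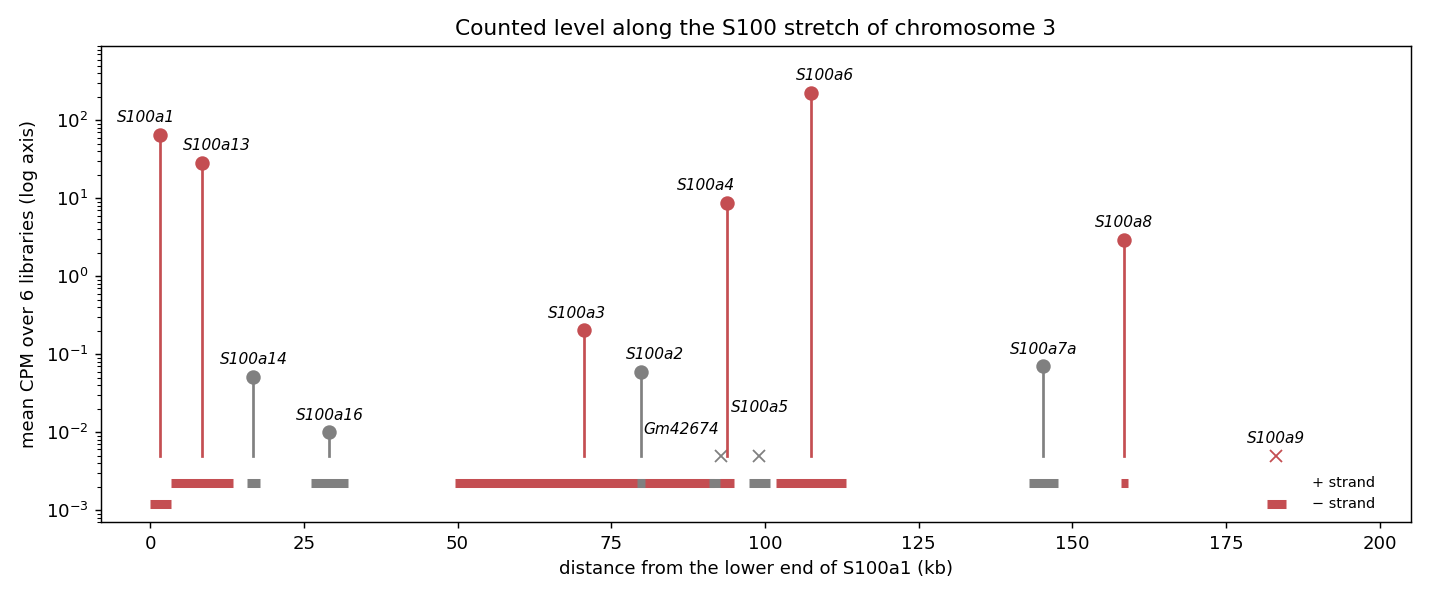
Mean CPM over the 6 libraries (log axis) of the S100 genes and Gm42674 against distance from the lower end of S100a1 in kb. Red marks the 7 members that lie here and grey the other genes, crosses stand for genes with 0 counts, and the bars below show each gene's extent by strand. S100a6, at 225 CPM, stands next to S100a5, at 0.

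S100a1 and S100a13 have 42 bases between their starts in the table and lie on opposite strands, and their levels did not keep a fixed ratio. S100a1 (ENSMUSG00000044080, 90511034 to 90514392, minus strand) had 2.27, 2.10 and 2.55 times the FPKM of S100a13 (ENSMUSG00000042312, 90514435 to 90524581, plus strand) in Vdbp replicates 1, 2 and 3. The ratio was 2.60, 2.55 and 1.92 in empty-vector replicates 1, 2 and 3. The ranges of both groups overlapped.

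Among the 7 members tested, the difference between the groups was largest for S100a4, the gene by which the family was chosen. S100a4 (ENSMUSG00000001020, 90603771 to 90606045, plus strand) had 154, 161 and 204 counts in Vdbp replicates 1, 2 and 3, and 99, 87 and 150 counts in empty-vector replicates 1, 2 and 3. Scaled to the TMM-adjusted library size these were 9.59, 9.62 and 13.03 CPM in the libraries labelled Vdbp, against 6.09, 5.25 and 8.87 CPM in the empty-vector libraries. Each library labelled Vdbp stood above each empty-vector library, the closest being Vdbp replicate 1 and empty-vector replicate 3. The means were 10.7 ± 1.98 CPM with the Vdbp label and 6.74 ± 1.90 CPM with the empty vector (SD, n = 3 each), a 1.59-fold difference with a 95% interval of 1.16-fold to 2.18-fold (log2 fold change 0.67, SE 0.21).

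edgeR's quasi-likelihood test called 0 of the 12844 tested genes at a Benjamini-Hochberg adjusted p under 0.05 (0.00%), so none of the 7 members passed. At an unadjusted p under 0.05 it had 687 genes, while DESeq2 had 11 calls (0.0856%), none of them a member, and 613 genes at an unadjusted p under 0.05. Without the filter on low counts edgeR called 89 of 24135 genes (0.369%), and S100a4 was among them (adjusted p 0.0408). With the filter, the adjusted p of S100a4 was 0.7806 in the edgeR fit and 0.6908 with DESeq2. Over 20 alternatives it ranged from 0.0408 to 0.9998, and it was under 0.05 in 1 of them. In bulk libraries like these, fewer cells with the transcript and less of it per cell cannot be told apart. These p-values come from the comparison by which the family was chosen and are no independent evidence about S100a4.

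The spread of S100a4 between libraries was wider than counting error. Its coefficient of variation was 18.4% in the libraries labelled Vdbp and 28.1% in the empty-vector libraries, where counting alone would give 7.60% and 9.45%. S100a4 was 1.08% to 1.67% of the counts of the 9 members with the Vdbp label and 0.715% to 1.16% with the empty vector. S100a6, a few kilobases away, had 12.1, 10.3 and 6.23 times its FPKM in Vdbp replicates 1, 2 and 3, against 15.6, 16.8 and 11.01 times in empty-vector replicates 1, 2 and 3.

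The counted level of S100a4 is uncertain, because Gm42674 covers much of it as well. Gm42674 overlaps 302 of the 584 exonic bases of S100a4, and 56.3% of the 50-base windows of the main S100a4 transcript occur in it. Gm42674 was listed at 0 counts in every library of both groups. How reads that fall in both genes were assigned is not given in the sources used here, and their part in the level or the difference was not tested. Markers of fibroblasts, where S100a4 is a common marker, were low: Col1a2, Col3a1 and Lum had 0 counts, and the 6 markers summed to 1.12 to 2.17 CPM with the Vdbp label and 1.54 to 2.25 CPM with the empty vector. Dcn, the only 1 of the 6 to pass the filter, averaged 1.14 CPM with the label and 1.46 CPM with the empty vector.

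**Figure D3:**
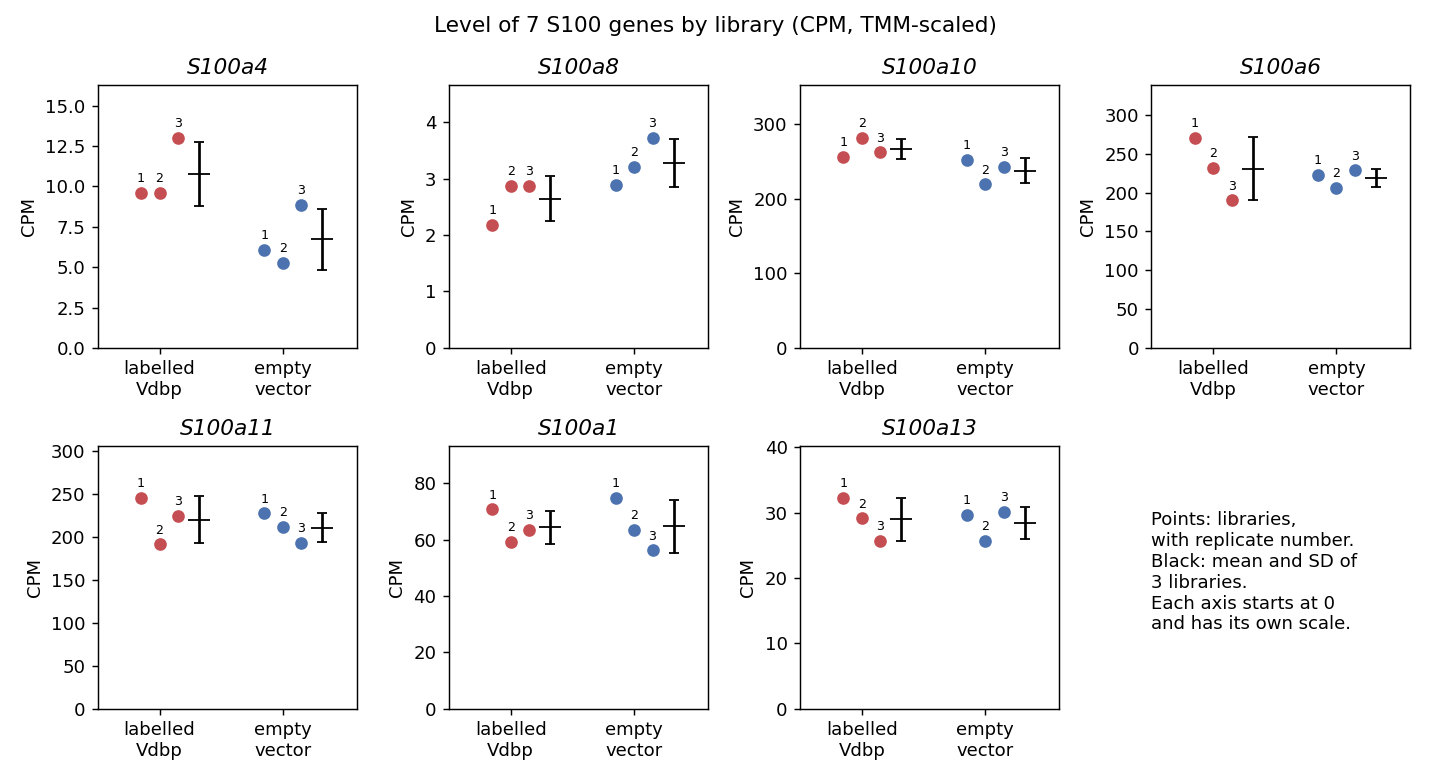
CPM of the 7 tested S100 genes in each library, with libraries labelled Vdbp in red on the left of each panel and empty-vector libraries in blue on the right; numbers are replicates, and black bars show the mean and SD of 3 libraries. The groups do not overlap in S100a4, S100a8 and S100a10, and in S100a8 the gap is small (2.87 against 2.89 CPM).

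S100a10 and S100a8 were the other members whose groups did not overlap. S100a10 (ENSMUSG00000041959, 93555080 to 93564643, plus strand) was at 256, 282 and 262 CPM in Vdbp replicates 1, 2 and 3, and at 251, 219 and 242 CPM in empty-vector replicates 1, 2 and 3. It averaged 267 ± 13.6 CPM with the Vdbp label and 238 ± 16.7 CPM with the empty vector, a log2 fold change of 0.17 (SE 0.09), and its 95% interval in fold, 0.9748 to 1.29, included no difference. S100a8 ran the other way, with 2.18, 2.87 and 2.87 CPM in Vdbp replicates 1, 2 and 3, and 2.89, 3.20 and 3.73 CPM in empty-vector replicates 1, 2 and 3. It averaged 2.64 ± 0.400 CPM with the Vdbp label and 3.27 ± 0.423 CPM with the empty vector, a log2 fold change of −0.31 (SE 0.22, 95% interval in fold 0.577 to 1.13). Its spread of 15.2% and 12.9% was near the 15.3% and 13.6% that counting alone gives. Leaving out Vdbp replicate 1 brought the log2 fold change of S100a8 to −0.19.

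With S100a4, groups that did not overlap were found for 2 members higher and 1 lower with the Vdbp label, of 7. Among all tested genes 5.26% did not overlap with the Vdbp label higher and 5.61% with it lower. Because the members were chosen with this comparison known, nothing is read from their share. Beside S100a8, the 10 neutrophil markers summed to 8.22 to 11.6 CPM with the Vdbp label and 13.1 to 16.2 CPM with the empty vector, most of it Mmp8, whose log2 fold change was −0.65. The other tested marker, Ngp, had 0.19 (SE 0.40), with at most 16 counts per library and groups that overlapped. The untested markers had at most 11 counts per library. Among them Elane averaged 0.429 CPM with the label and 0.242 CPM with the empty vector, and Mpo 0.021 and 0.121 CPM. At such counts no direction is read from Ngp or the untested markers. The part of the neutrophil markers in the S100a8 values was not tested.

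The 4 other tested members had log2 fold changes within 0.10 of 0. S100a6 (ENSMUSG00000001025, 90612882 to 90624181, plus strand) was at 271, 232 and 190.0 CPM in Vdbp replicates 1, 2 and 3, and at 222, 206 and 229 CPM in empty-vector replicates 1, 2 and 3. The libraries labelled Vdbp lay on both sides of the empty-vector libraries, with a spread of 17.5% against 5.26%, where counting alone gives 1.64% and 1.66%. Its log2 fold change was 0.08 (SE 0.12), and −0.00 after removal of a trend of each library on gene length and GC content, so its sign turned. S100a11 (ENSMUSG00000027907, 93520488 to 93526287, plus strand) averaged 220.0 ± 27.1 CPM with the Vdbp label and 211 ± 17.0 CPM with the empty vector, a log2 fold change of 0.06 (SE 0.11). Windows of 50 bases of its transcript occur in other genes for 41.1% of positions, in Gm12854, Gm29240 and Gm7665. Their counts were at most 116 per library with the Vdbp label and at most 286 with the empty vector, against 3198 to 3934 and 3267 to 3696 for S100a11, so the assignment of such reads leaves its level uncertain.

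S100a1 averaged 64.5 ± 5.85 CPM with the Vdbp label and 64.8 ± 9.35 CPM with the empty vector, a log2 fold change of −0.01 (SE 0.12). S100a13 averaged 29.0 ± 3.28 CPM with the Vdbp label and 28.4 ± 2.47 CPM with the empty vector, a log2 fold change of 0.03 (SE 0.13), which became −0.07 after removal of the length and GC trend. The 95% intervals in fold were 0.827 to 1.20 for S100a1, 0.842 to 1.23 for S100a13, 0.877 to 1.27 for S100a6 and 0.884 to 1.23 for S100a11. The sign of S100a1 changed in 4 of 20 alternatives, of S100a6 in 4, of S100a11 in 2 and of S100a13 in 5, and no direction is given for them. S100a4, S100a8 and S100a10 kept their sign in all 20 alternatives. Their groups did not overlap, so leaving out a library could hardly turn the sign, and the other alternatives reuse the same counts. The kept sign is therefore no further evidence of a direction. Over the 7 members the median log2 fold change was 0.06, with 5 of 7 above 0, beside a median of −0.01 over all tested genes, of which 48.7% were above 0.

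**Figure D4:**
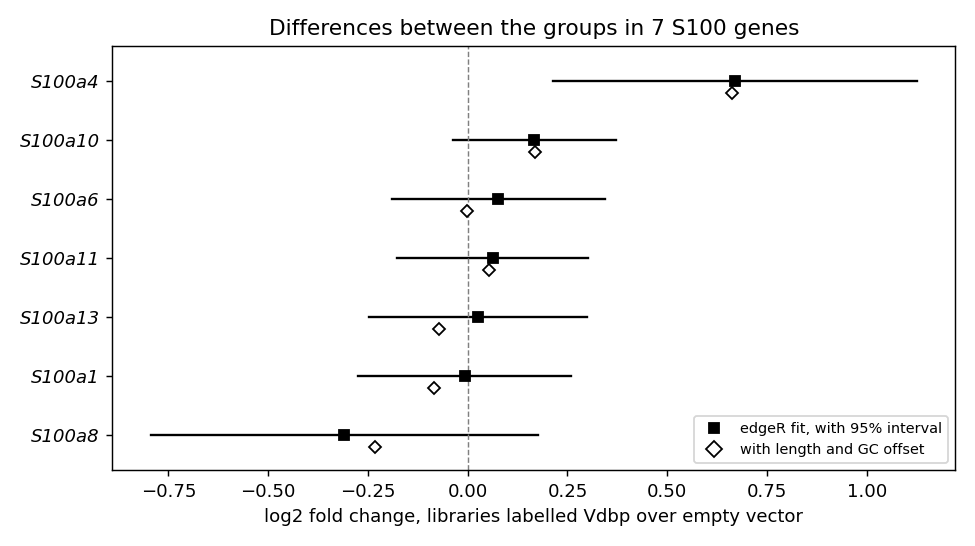
Log2 fold change of the 7 tested S100 genes, libraries labelled Vdbp over empty vector, with the 95% interval of the edgeR fit (squares and lines) and the value after removal of a trend on gene length and GC content (diamonds). S100a4, at 0.67, is the farthest from 0, and the interval of each of the other 6 genes includes 0. The family was chosen by the difference of S100a4, so its place and its interval here test nothing. In this edgeR fit the adjusted p of S100a4 was 0.7806.

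The known partners of S100 proteins were measured in the same libraries, and none passed the test. The 9 genes of the list of annexins and the scaffold protein Ahnak were all tested, with 4 log2 fold changes above 0 and 5 below and a median of −0.05. After removal of the length and GC trend 2 were above 0 and 7 below, with a median of −0.04. Anxa2, the annexin that S100a10 binds, averaged 419 ± 29.5 CPM with the Vdbp label and 406 ± 15.97 CPM with the empty vector. Anxa5, which binds phosphatidylserine on membranes, averaged 261 ± 3.56 CPM with the Vdbp label and 271 ± 9.43 CPM with the empty vector. Ahnak, which the S100a10 complex with annexin A2 holds at the membrane, averaged 145 ± 12.7 CPM with the label and 172 ± 8.54 CPM with the empty vector and was named after its values were seen. It was the 1 gene of the 9 whose groups did not overlap, where 5.61% of all tested genes did so with the Vdbp label lower. The plasmin system, which the complex of S100a10 and annexin A2 serves as a cell surface receptor, had 5 of 6 genes tested, 2 above 0 and 3 below, with a median of −0.15. The protease Plau averaged 50.4 ± 4.83 CPM with the Vdbp label and 55.8 ± 2.03 CPM with the empty vector, and plasminogen itself, Plg, had 0 counts.

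Receptors of released S100 proteins had 7 of 8 genes tested, 1 above 0 and 6 below, with a median of −0.20. After removal of the length and GC trend the median was −0.07, with 0 of 7 above 0, so the sign of Bsg turned. Among all tested genes 48.7% were above 0 before that removal, and 6498 of 12844 were after it. Ager, the gene of RAGE, did not pass the filter and averaged 0.121 CPM with the Vdbp label and 0.259 CPM with the empty vector. The most abundant were Bsg, the S100a9 receptor basigin, at 763 ± 100.3 CPM with the Vdbp label and 723 ± 37.5 CPM with the empty vector, and Cd14, a co-receptor of TLR4, at 651 ± 33.6 CPM and 675 ± 46.5 CPM in the same groups. Intracellular partners had 8 of 9 genes tested, 2 above 0 and 6 below, with a median of −0.11, or −0.06 with 3 above 0 after removal of the trend. Myh9, the myosin IIA heavy chain that S100a4 binds, averaged 786 ± 89.2 CPM with the Vdbp label and 744 ± 63.1 CPM with the empty vector, and Iqgap1, a scaffold of the actin cortex, 517 ± 31.0 CPM and 572 ± 49.5 CPM.

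Of the cargo that S100a13 helps to release, Il1a was tested and averaged 70.1 ± 14.5 CPM with the Vdbp label and 93.2 ± 18.2 CPM with the empty vector, a log2 fold change of −0.41 (SE 0.17) with groups that overlapped. Fgf1 averaged 0.556 CPM with the label and 0.541 CPM with the empty vector, and Syt1 had 0 counts. The 10 other EF-hand genes were all tested, 5 above 0 and 5 below, with a median of 0.01, or 0.04 with 6 above 0 after removal of the trend. Among them the actin bundler Lcp1 averaged 1104 ± 53.6 CPM with the Vdbp label and 1179 ± 79.2 CPM with the empty vector. On the FPKM scale S100a11 averaged 428 with the label and 409.9 with the empty vector.

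Genes whose pattern over the 6 libraries was most like that of S100a4 were found by the root mean square difference of log2 CPM, each gene centred on its own mean, among 9361 protein-coding genes. Ndufb2, a subunit of respiratory complex I, came closest with a difference of 0.13, followed by Rpl22l1, a ribosomal protein paralogue, with 0.17 and Mpg, a DNA glycosylase, with 0.19. S100a4 itself deviated from its mean by 0.41 on this scale. Ndufb2 was at 5.85, 5.56 and 6.77 CPM in Vdbp replicates 1, 2 and 3, and at 3.26, 3.62 and 5.09 CPM in empty-vector replicates 1, 2 and 3. These genes were picked for their likeness to S100a4, so a shared order of libraries is no separate observation. For S100a10, the member with the most counts per library on average, the closest genes were Stmn1, the microtubule regulator stathmin (0.03), Rps6kc1 (0.03) and Rrp15 (0.03), against a deviation of 0.11 of S100a10 itself. Stmn1 was at 115, 125 and 119 CPM in Vdbp replicates 1, 2 and 3, and at 114, 103 and 111 CPM in empty-vector replicates 1, 2 and 3.

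The coding sequences of the members are short and only moderately alike. They run from 267 bases in S100a6 and S100a8 to 480 bases in S100a13, and pairwise identity over the whole alignment ranged from 36.0% between S100a8 and S100a13 to 59.5% between S100a4 and S100a6. That measure counts gaps, which lowers the values of the longer S100a13. Over aligned bases alone S100a8 and S100a13 were identical at 65.0%. On that measure the range was 52.1% between S100a3 and S100a10 to 68.9% between S100a4 and S100a6. S100a8 and S100a9 were identical at 49.6% of alignment positions, and S100a3 and S100a4 at 56.4%. No member's main transcript shared a 50-base window with another member.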

How the data were processed

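Messenger RNA was sequenced from 6 DC2.4 samples. The authors deposited whole-number counts per Ensembl gene and an FPKM table, and per the submitters' processing notes HISAT2 and StringTie were used; versions, counting tool and build: not given in the sources used here. In value, the authors' FPKM equalled the count divided by gene length and 1 constant per library (largest relative gap 5.11e-15). Counts were analysed with edgeR 4.0.16 in R 4.3.3: filterByExpr (minimum count 10, total 15, proportion 0.7), TMM scaling, a two-sided quasi-likelihood F test on group alone, Benjamini-Hochberg adjustment over all tested genes and a threshold of 0.05. CPM are counts over TMM-adjusted library sizes. The fit was tested on simulated counts. DESeq2 1.42.0, limma 3.58.1, other scalings and filters, a length and GC offset fitted with mgcv 1.9.3, a replicate block and leaving out libraries were alternatives; DESeq2 ran on the same filtered genes. Libraries of a group differed beyond sampling noise (chi-square per gene at least 7.36). GC content came from GENCODE M21, which covered 99.92% of tested genes. Coding sequences were aligned with Biopython 1.88.

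The members, lists and tests were chosen with earlier results of these data known. All members are described. Every other S100 gene is named, and of each list the 2 tested genes with the highest mean CPM, and the 3 genes most like S100a4 and most like the member with the highest mean CPM, among protein-coding genes of at least 5 CPM. Some genes that this rule names are not reported here. Other list members were named after their values were seen. Zero counts were taken to permit at most 3 per library; that floor covers counting error only, while the 95% intervals of fold changes are from the fit. Protein sequences were not used here. The monocyte list (1 of 5 tested), the T cell list (0 of 4) and the epithelial list (0 of 4) summed to at most 2.23, 0.121 and 0.299 CPM in any library.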

Additional observations from a re-analysis of the deposited data

How the results depend on the processing

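Of 140 alternative values of the 7 members' log2 fold changes, 139 moved by less than 1 SD between libraries. S100a13 moved to −0.13 without empty-vector replicate 2 and Vdbp replicate 1 together. Leaving out 1 library of 3 could hardly move a value by that SD, and most other alternatives reuse the same counts. The 139 are therefore no evidence that the values are stable. S100a4 stayed between 0.51 (without Vdbp replicate 3) and 0.92 (without empty-vector replicate 3). With 1 library left out, S100a1 ranged from −0.10 to 0.11, S100a6 from −0.05 to 0.20, S100a8 from −0.39 to −0.19, S100a10 from 0.11 to 0.21, S100a11 from −0.02 to 0.16 and S100a13 from −0.05 to 0.11. The number of genes called, 0 in the edgeR fit, was 11 with DESeq2 (2 higher and 9 lower), 89 without a filter on low counts (42 higher and 47 lower), 2 with the length and GC offset and 2 without the 2 libraries named above; it ranged from 0 to 22 with 1 library left out (1 when empty-vector replicate 2 was dropped and 22 when empty-vector replicate 3 was). The causes of these moves were not tested. Fits with the replicate number as a block called 0 genes, with or without the offset, and gave S100a4 0.69 and 0.68. Deviations of same-numbered libraries had correlations of 0.144, 0.034 and −0.265, and 2 of 6 libraries correlated best with their own number. The labels do not say whether the numbers pair the samples, and these correlations cannot decide it. By CPM, without division by gene length, S100a10 took place 1, S100a6 place 2 and S100a11 place 3; the other 78 of 81 alternative places were as given. Depth limits S100a3, S100a8 and S100a9, with at most 63 counts per library.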
